A study of Homo sapiens with 7 samples.

Results

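The nuclear pore complex was represented in this genome-wide knockout screen by 116 guide RNAs against 29 genes, 4 guides a gene, out of 77441 guides and 19112 genes. The members were chosen by a rule on gene names, and earlier results of these data were known when it was set. The rule took every gene whose symbol is NUP followed by a digit, together with TPR, POM121, NDC1, RAE1, SEH1L, SEC13, AAAS and RANBP2. The screen was run in a clonal reporter line of HCT116, which derives from a human colorectal carcinoma, with a GFP splicing reporter integrated at the AAVS1 locus by TALENs. The reporter holds OGT intron 4, which is retained in much of the cell's OGT RNA, with its neighbouring exons set between exons of HBB, so that GFP reads out splicing of that intron. All cells received the Brunello knockout library at a multiplicity of infection of 0.3, were selected on puromycin for 8 days from day 2 after infection, and were given thiamet G (TG, an inhibitor of the O-GlcNAc hydrolase OGA) at 1 µM for 24 h from day 9, replenished every 12 h. The sorted cells had high GFP on day 10, and the input cells were the same cells unsorted, so that both groups carried the guides and the drug. The question put to the screen was which gene losses raise reporter splicing. There were 3 sorted libraries, 3 input libraries and 1 guide library, and the guide library was prepared from unselected cells by one source and from the starting DNA by another. The screens were labelled biological replicates, 1 of them a pilot at 100-fold coverage of the library and the rest at 300-fold. Since no replicate number stands beside the deposited values, library numbers here give only the order of the values, and which library was the pilot is not known.

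The nuclear pore complex is the channel through the nuclear envelope by which proteins and RNA pass between nucleus and cytoplasm. Its scaffold consists of the Y complexes of the outer rings and of an inner ring, a membrane ring anchors it, and unstructured chains rich in phenylalanine and glycine fill the channel and reach into the cytoplasmic filaments and the nuclear basket. Many of these chains carry O-GlcNAc, the sugar that OGT attaches, and NUP62 is a classic example of such a protein.

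The guides of the 4 members with the smallest enrichment p-values in sorted cells are shown first, since the comparison with input turns on them. Each sequence is the genomic target from 5′ to 3′, with the 20 bases of the guide in lower case and the NGG motif that Cas9 needs beside it in capitals. Positions are those of the 20 guide bases on GRCh38, and exons are numbered in the MANE or canonical transcript of GENCODE 44. Every one of these targets lies in a coding exon.
NUP153 exon 2, chr6:17688499-17688518, minus strand: acacaagcgaggttccacgcTGG
NUP153 exon 5, chr6:17674957-17674976, minus strand: cctggaaaaacaacatacggTGG
NUP153 exon 16, chr6:17637333-17637352, minus strand: gcgagcccttacattgacagTGG
NUP153 exon 17, chr6:17632755-17632774, minus strand: ggaaaagttcaagaaacccgAGG
NUP85 exon 3, chr17:75209851-75209870, plus strand: ctttatctatatcatccgtaAGG
NUP85 exon 4, chr17:75212022-75212041, plus strand: agtcatcagagcatgtatggAGG
NUP85 exon 6, chr17:75215792-75215811, minus strand: caataaaaagaatctcacacAGG
NUP85 exon 8, chr17:75225186-75225205, plus strand: aggcatatgccgaatcatggGGG
NUP62 exon 3, chr19:49909557-49909576, minus strand: acagcgactcttgcttcgggGGG
NUP62 exon 3, chr19:49909284-49909303, plus strand: gagccaatgttgaaaccggaGGG
NUP62 exon 3, chr19:49909126-49909145, plus strand: cagttgctattgacgcaaagAGG
NUP62 exon 3, chr19:49908926-49908945, plus strand: taaattcaaggcaaagccggTGG
NUP155 exon 2, chr5:37364253-37364272, plus strand: actgctcaacaagttcaggtGGG
NUP155 exon 5, chr5:37352765-37352784, plus strand: aagaattactatgtctacagGGG
NUP155 exon 11, chr5:37341177-37341196, minus strand: acggcctaatacactgacgcTGG
NUP155 exon 17, chr5:37328387-37328406, plus strand: tttggatagggactaccactAGG

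NUP50 and POM121 are shown because 3 of their guides match the genome perfectly at more than 1 place. The NUP50 guides at 45178764 and 45178265 also match a processed pseudogene within CMAHP on chromosome 6, and the POM121 guide at 72940847 also matches the pseudogene POM121B on chromosome 7.
NUP50 exon 4, chr22:45175885-45175904, plus strand: atacttcagtctgacactggAGG
NUP50 exon 5, chr22:45178265-45178284, minus strand: tgaaactttatcaaccaaggTGG
NUP50 exon 5, chr22:45178632-45178651, plus strand: tacacctgacaagaagatggAGG
NUP50 exon 5, chr22:45178764-45178783, minus strand: agaaagaaaatccagtcaggGGG
POM121 exon 3, chr7:72926877-72926896, plus strand: actgagtgccctcaaagagaAGG
POM121 exon 5, chr7:72930026-72930045, minus strand: acttgcgtaagcgcctgtcaAGG
POM121 exon 10, chr7:72940847-72940866, minus strand: tgaaggctgagtgataggtgGGG
POM121 exon 11, chr7:72942229-72942248, minus strand: gctgtgactgaagggccaggCGG

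The guides shown next were among the most changed of the other members described below. The RAE1 guide in exon 9 was absent from all 6 cell libraries.
NUP160 exon 21, chr11:47804583-47804602, plus strand: cattctagaaagagacaaccAGG
NUP214 exon 6, chr9:131132629-131132648, minus strand: tgatctgactcataaaacggAGG
NUP214 exon 14, chr9:131147526-131147545, plus strand: caatggtacagaaatcacccAGG
NUP205 exon 24, chr7:135615982-135616001, plus strand: taacctctctgaatcgtcagCGG
RAE1 exon 8, chr20:57368766-57368785, plus strand: atcaaccttctgaattcaggAGG
RAE1 exon 9, chr20:57373530-57373549, minus strand: tctcccctcgatacttcccaGGG
NUP62CL exon 5, chrX:107154209-107154228, minus strand: gatgacatatggtcatctggAGG

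All 116 guides matched a coding exon of their own gene, and 113 of them matched nowhere else. The share with several perfect sites was 2.59%, against 4.04% of the 76441 targeting guides. The cut sites lay between 5.15% and 69.6% of the way along the coding sequence, with a median of 32.4%.

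Depth was 27.8 to 29.5 M reads in the input libraries, 26.2 to 31.0 M in the sorted libraries and 35.8 M in the guide library (in units of 1000000). Values are normalised counts per guide, and guide library reads were multiplied by 0.684 to put the median guide on the level of input. Many guides had no reads in sorted cells: 7.26% to 10.8% of all guides were at 0 in a sorted library, against 0.173% to 0.227% in an input library. Of the 116 member guides, 17, 20 and 17 were at 0 in sorted libraries 1, 2 and 3, and 1, 2 and 1 in input libraries 1, 2 and 3. The RAE1 guide in exon 9 had 6 reads in the guide library (exact Poisson 95% interval 2.20 to 13.1, counting error only) and could not be tested, which left 115 member guides.

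Guides against pore genes were underrepresented in input cells relative to the guide library. The median member gene stood at -0.55 on the log2 scale, or 0.685-fold, where the median of all 19112 genes stood at -0.04. Of the 29 members, 27 lay below 0, and the exceptions were NUP210 (0.15) and NUP210L (0.10), whereas 45.0% of all genes lay above 0. A gene was called low when its mean over the 3 input libraries was at or below -1, a loss of at least 2-fold. By that rule 6 of the 29 members were low (20.7%), against 308 of all genes (1.61%). They were NUP205, NUP214, RAE1, NUP155, NUP153 and NUP93. With 1 guide library there is no test, and the errors given are SDs over the input libraries. Scaling to the median of the non-targeting guides moved the median of all genes to -0.33, and 10 members and 4.32% of all genes were then low.

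Guides of a gene, and substructures of the pore, differed in how low they stood in input. Of the 115 member guides tested, 30 were at or below -1 (26.1%), against 7.66% of all guides tested. In 10 members no guide reached -1, in 11 a single guide did, and NUP205 was the only member with all 4. By substructure the median was lowest for the 5 inner ring genes, at -1.06 (0.48-fold), with 3 of 5 called low. The 8 Y complex genes had a median of -0.54 with none called low, and the 4 genes of the cytoplasmic filaments also had -0.54, with 1 called low. The basket had a median of -0.51 over 3 genes, the central channel -0.43 over 2, and NUP98 with RAE1 -0.98. The 3 membrane ring genes had a median of -0.05, near that of all genes. NUP210L and NUP62CL, relatives of pore genes that are not known as parts of the somatic pore, had a median of -0.23. They were unlike, at 0.10 in NUP210L and -0.56 in NUP62CL, and the latter was as low as the Y complex median.

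No pore gene passed the test of sorted against input cells in either direction. Guide p-values from limma were combined per gene by robust rank aggregation (RRA) with Benjamini-Hochberg adjustment over all genes. At an adjusted p below 0.05, the enriched set held 60 genes (0.314%), the depleted set held 1 (0.00523%), and 0 of 29 members were in either. At an adjusted p below 0.25, NUP153 was the only member in the enriched set (0.644% of all genes) and none was in the depleted set (0.0105%). At an unadjusted p below 0.05, 6 members were enriched, namely NUP153, NUP85, NUP62, NUP155, TPR and NUP35 (20.7%, against 5.47% of all genes). The 4 depleted at that level were NUP160, NUP62CL, RAE1 and NUP214 (13.8%, against 5.53%). Of the 6 enriched, TPR and NUP35 had negative log2 differences of sorted minus input as gene means, -0.05 and -0.48. Both lay above the median of all genes, -0.56. limma on gene means, which called 0.0157% of all genes higher, also called 0 members. So did edgeR on recovered reads, with 81 of all genes enriched by RRA. Without adjustment, limma on gene means put 3 members higher (10.3%, against 1.96% of all genes) and 7 lower (24.1%, against 13.9%). The limma p-values measure the spread between libraries labelled as biological replicates. The RRA p-values measure how far a gene's guides rank toward 1 end of all guides, with guides as the units, not replicates.

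The log2 difference of sorted minus input cells, on the log2(normalised count + 1) scale and averaged over a gene's guides, ran from -3.03 in SEH1L to 1.33 in NUP85. It was above 0 in 7 members and below 0 in 22, and in 4100 and 15012 of all 19112 genes. The median was -0.70 for the members and -0.56 for all genes, and 13 members lay above the latter. The sign of that difference depended on the settings: relative to all genes the members' median was -0.14 with limma, 0.03 with limma and a pseudocount of 10, and 0.31 with edgeR. The sorted libraries also varied more than the input libraries, with a median SD of a member gene's mean of 1.22 against 0.17, and for all genes 0.89 against 0.14. The gene mean was higher in every sorted than in every input library for 4 members (13.8%, against 4.56% of all genes) and lower for 8 (27.6%, against 22.9%). Among single guides, 20 of 115 were higher in all sorted libraries (17.4%, against 9.04%) and 11 lower (9.57%, against 7.47%).

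In the nuclear basket, NUP153 had the smallest enrichment p of the 29 members and ranked 62 of 19112 genes. NUP153 is a basket protein with long phenylalanine-glycine chains that serves both import and mRNA export. Its exon 2 guide was at 777 in the scaled guide library, at 209, 209 and 207 in input and at 500.2, 625 and 626 in sorted cells. Its exon 16 guide was at 493 in the scaled guide library, at 493, 409.7 and 357 in input and at 1978, 826 and 831 in sorted cells. Its exon 17 guide was at 306 in the scaled guide library, at 249, 245 and 214 in input and at 563, 356 and 517 in sorted cells. All 3 of these guides were higher in every sorted library than in any input library, which held for 3 of 4 guides in no other member. Its exon 5 guide was at 129 in the scaled guide library, at 15.6, 33.3 and 34.7 in input and at 181, 5.72 and 60.3 in sorted cells. That guide was thin in input and its groups overlapped in sorted library 2. The gene's log2 difference was 1.13 ± 0.47 (limma SE), with 1.87, 0.28 and 1.22 in the 3 sorted libraries, and the RRA adjusted p was 0.052. The call moved with the settings: the adjusted p was 0.0157 (log2 difference 1.29) when guides with a mean input under 30 were left out, which drops the exon 5 guide, and 0.0496 when guides of several sites were left out over the whole library. It was 0.571 without sorted library 1 and 0.518 without sorted library 3. NUP153 was also scarce in input, at -1.19 ± 0.10 (SD, n = 3) against the guide library, with its exon 2 and exon 5 guides at -1.89 and -2.25 and the other pair at -0.24 and -0.37.

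TPR, the large coiled-coil protein of the basket filaments, had a log2 difference of -0.05 ± 0.59 and an RRA adjusted p for enrichment of 0.836. The 3 sorted libraries gave 0.59, -1.45 and 0.72. Sorted library 2 was low and the others were high. NUP50, a basket protein that aids release of import cargo, had -1.20 ± 0.90 (adjusted p for depletion 1). Its several-site guide at 45178764 was at 78.7 in the scaled guide library, at 130.0, 146 and 182 in input and at 384, 0 and 189.9 in sorted cells. Its several-site guide at 45178265 was at 152 in the scaled guide library, at 91.3, 80.5 and 94.5 in input and at 118, 1.14 and 0 in sorted cells. Both overlapped between groups and both were at or near 0 in 1 or more sorted libraries. Against the guide library TPR stood at -0.51 ± 0.09 and NUP50 at -0.16 ± 0.05.

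In the Y complex, whose members build the outer rings, NUP85 had the highest log2 difference of all members and NUP160 the smallest depletion p. NUP85 forms a short arm of the Y, and its exon 3 guide was at 161 in the scaled guide library, at 169, 198 and 234 in input and at 479, 88.0 and 643 in sorted cells. Its exon 4 guide was at 298 in the scaled guide library, at 161, 297 and 152 in input and at 223, 583 and 571 in sorted cells. Its exon 6 guide was at 129 in the scaled guide library, at 65.8, 94.5 and 58.1 in input and at 246, 549 and 155 in sorted cells. The exon 6 guide was above all input values in every sorted library, while the exon 4 guide overlapped input in sorted library 1 and the exon 3 guide in sorted library 2. Its exon 8 guide was at 121 in the scaled guide library, at 48.5, 99.8 and 83.3 in input and at 221, 504 and 124 in sorted cells, again without overlap. The gene's log2 difference was 1.33 ± 0.40, with 1.20, 1.53 and 1.27 in the 3 sorted libraries, and the RRA adjusted p was 0.585. The 3 sorted libraries were alike in the mean over its guides but not guide by guide. The gene means did not overlap with input.

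NUP160 lies at the end of the other arm of the Y. Its exon 21 guide was at 98.5 in the scaled guide library, at 55.1, 77.9 and 66.8 in input and at 0, 0 and 0 in sorted cells. At 0 in all sorted libraries, it was at least 22.6-fold lower than in input, taking 3 reads per library as the floor, with a limma adjusted p of 0.0376 over all guides. Its exon 13 guide was at 391 in the scaled guide library, at 196, 255 and 145 in input and at 197, 135 and 118 in sorted cells. Its exon 3 guide was at 404 in the scaled guide library, at 300.2, 246 and 363 in input and at 324, 682 and 574 in sorted cells. Its exon 6 guide was at 241 in the scaled guide library, at 141, 129 and 160.5 in input and at 179, 309.8 and 559 in sorted cells. The exon 6 guide was thus higher in every sorted library and the exon 21 guide lower, so the guides of 1 gene went both ways. The gene's log2 difference of -1.15 ± 0.50 (RRA adjusted p for depletion 0.856) rested on the exon 21 guide: it was 0.38 when the median guide stood for the gene and 0.37 with edgeR.

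The other Y complex members did not pass the test. SEH1L, a small propeller protein shared with a nutrient-sensing complex, had the lowest log2 difference of all members, -3.03 ± 0.72, with -1.59, -3.50 and -4.00 in the 3 sorted libraries and an adjusted p for depletion of 0.937. Of its guides 3 of 4 were at 0 in a sorted library. NUP107, an essential stalk protein of the Y, had -1.68 ± 0.95, NUP133 at the foot of the stalk -0.43 ± 0.54 and NUP37 -0.82 ± 0.93. NUP43 had -0.08 ± 0.53 and SEC13, which also coats vesicles leaving the endoplasmic reticulum, -0.58 ± 0.67. Against the guide library the 8 genes ranged from -0.95 ± 0.10 (SD, n = 3) in NUP37 to -0.23 ± 0.31 in SEC13, and SEH1L stood at -0.83 ± 0.53.

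The inner ring, which holds the channel together, contained the member that was lowest in input. NUP205, a large scaffold protein, stood at -1.70 ± 0.18 (SD, n = 3) against the guide library, or 0.308-fold, with -1.88, -1.53 and -1.70 in the 3 input libraries, and ranked 40 of 19112 genes from the lowest. Its exon 5 guide was at 198 in the scaled guide library, at 99.5, 61.3 and 66.8 in input and at 6.33, 0 and 129.6 in sorted cells. Its exon 7 guide was at 131 in the scaled guide library, at 46.9, 75.3 and 26.9 in input and at 19.9, 191 and 0 in sorted cells. Its exon 15 guide was at 170.3 in the scaled guide library, at 53.5, 70.0 and 43.4 in input and at 0, 319 and 2.70 in sorted cells. Every input value of these guides lay below the scaled guide library, and each guide was at 0 in 1 sorted library. Its exon 24 guide was at 140.2 in the scaled guide library, at 12.3, 26.3 and 65.9 in input and at 127, 0 and 0 in sorted cells, with 2 sorted libraries at 0. The gene's log2 difference between sorted and input was -2.35 ± 0.60 (RRA adjusted p for depletion 0.992).

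NUP155, which ties the inner ring to the membrane, was low in input and had a positive log2 difference in sorted cells. Its exon 2 guide was at 513 in the scaled guide library, at 282, 232 and 189 in input and at 181, 481 and 274 in sorted cells. Its exon 5 guide was at 301 in the scaled guide library, at 83.9, 19.3 and 89.3 in input and at 174, 402 and 341 in sorted cells. Its exon 11 guide was at 645 in the scaled guide library, at 243, 135 and 114 in input and at 588, 529 and 822 in sorted cells. The exon 5 and exon 11 guides were higher in every sorted than in every input library, by 2.43 ± 1.06 and 2.03 ± 0.43 (log2, limma SE), though neither passed (limma adjusted p 0.683 and 0.129). Its exon 17 guide was at 448 in the scaled guide library, at 642, 486 and 437 in input and at 915, 558 and 629 in sorted cells and was neither scarce in input nor apart in sorted cells. The gene stood at -1.37 ± 0.45 (SD, n = 3) against the guide library, with -0.90, -1.79 and -1.42 in the 3 input libraries, of which only the first lay above -1. Sorted minus input was 1.29 ± 0.35, with 1.02, 1.46 and 1.40 in the 3 sorted libraries, and the RRA adjusted p was 0.806.

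NUP93, the linker that joins the inner ring to the channel proteins, stood at -1.06 ± 0.06 (SD, n = 3) against the guide library and at -2.17 ± 0.90 in sorted against input. NUP188, a relative of NUP205, had -0.65 ± 0.11 and -0.70 ± 0.88 in the same comparisons. NUP35, a membrane-binding member of the ring, had -0.18 ± 0.07 and -0.48 ± 0.49, and its RRA adjusted p for enrichment was 0.906. Their RRA adjusted p-values for depletion were 0.906, 1 and 1 in that order, and none passed.

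In the central channel, NUP62 is the main phenylalanine-glycine protein and all 4 of its guides cut the same coding exon. The guide at 49909557 was at 408 in the scaled guide library, at 190.0, 111 and 106 in input and at 96.8, 503 and 176 in sorted cells. The guide at 49909284 was at 383 in the scaled guide library, at 192, 228 and 78.1 in input and at 315, 1314 and 126 in sorted cells. The guide at 49909126 was at 322 in the scaled guide library, at 261, 263 and 377 in input and at 261, 913 and 379 in sorted cells. Each was highest in sorted library 2, and the groups overlapped for all 3. The guide at 49908926 was at 224 in the scaled guide library, at 153, 239.8 and 176 in input and at 350.1, 653 and 358 in sorted cells, without overlap. Sorted minus input was 0.94 ± 0.53 for the gene, with 0.34, 2.12 and 0.37 in the 3 sorted libraries, and the RRA adjusted p was 0.649. Sorted library 2 thus stood apart from the other pair. NUP62 was at -0.84 ± 0.21 (SD, n = 3) against the guide library. NUP54, its partner in the channel, was at -0.03 ± 0.20 there and at -1.40 ± 1.00 in sorted against input (adjusted p for depletion 1).

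RAE1, an mRNA export factor that binds NUP98, stood at -1.42 ± 0.27 (SD, n = 3) against the guide library, with -1.72, -1.24 and -1.29 in the 3 input libraries. Its exon 3 guide was at 162 in the scaled guide library, at 98.7, 111 and 144 in input and at 251, 93.7 and 107 in sorted cells. Its exon 8 guide at 57368695 was at 202 in the scaled guide library, at 33.7, 50.8 and 77.2 in input and at 0, 85.7 and 0 in sorted cells. Its exon 8 guide at 57368766 was at 208 in the scaled guide library, at 79.8, 182 and 78.9 in input and at 4.52, 73.2 and 0 in sorted cells. The exon 3 guide and the first of the exon 8 guides overlapped between groups, while the last was lower in every sorted than in every input library. The gene mean includes the exon 9 guide with 6 guide library reads, and was -1.13 with guides under 100 reads left out and -0.82 with a pseudocount of 10. Sorted minus input was -2.39 ± 1.03 (RRA adjusted p for depletion 0.884), with -2.95, -0.03 and -4.18 in the 3 sorted libraries. NUP98, a mobile channel protein whose gene also encodes the Y complex protein NUP96, had -0.55 ± 0.08 against the guide library and 0.04 ± 0.31 in sorted against input.

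Among the cytoplasmic filaments, NUP214, which docks export complexes, had the second lowest input level of the members, -1.56 ± 0.16 (SD, n = 3), with -1.69, -1.60 and -1.38 in the 3 input libraries. Its exon 6 guide was at 157 in the scaled guide library, at 24.7, 18.4 and 62.5 in input and at 0, 0 and 0 in sorted cells. At 0 in all sorted libraries, it was at least 11.9-fold lower than in input by the same floor (limma adjusted p 0.0376), and at least 7.30-fold lower without input library 3, which held most of its input reads. Its exon 14 guide was at 397 in the scaled guide library, at 52.6, 64.8 and 41.6 in input and at 76.9, 179 and 0 in sorted cells. Its exon 19 guide was at 88.9 in the scaled guide library, at 30.4, 50.8 and 39.9 in input and at 0, 0 and 112 in sorted cells. Both overlapped between groups. Its exon 23 guide was at 237 in the scaled guide library, at 286, 241 and 260.2 in input and at 441, 481 and 808 in sorted cells. That guide was not scarce in input and was higher in every sorted library, so NUP214, like NUP160, had guides in both directions. Sorted minus input was -2.03 ± 0.51 for the gene (RRA adjusted p for depletion 0.884).

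NUP88, the partner of NUP214, had -0.86 ± 0.53 against the guide library and 1.05 ± 0.64 in sorted against input, with 0.14, 1.54 and 1.48 in the 3 sorted libraries (adjusted p for enrichment 1). RANBP2, the giant filament protein that binds Ran and acts as a SUMO ligase, had -0.22 ± 0.31 and -1.01 ± 0.95, with 1.07, -1.46 and -2.63 in the 3 sorted libraries. The sign for RANBP2 differed between sorted libraries. AAAS, a pore protein whose loss causes triple A syndrome, had -0.20 ± 0.20 and -2.51 ± 0.99 (adjusted p for depletion 0.912).

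The membrane ring had the median nearest to 0 of the substructures in input against guide library. NUP210, a single-pass membrane glycoprotein, stood at 0.15 ± 0.09 (SD, n = 3) against the guide library, NDC1 at -0.05 ± 0.10 and POM121 at -0.41 ± 0.33. Sorted minus input was -1.38 ± 1.05, -0.43 ± 0.65 and -0.18 ± 0.67 in that order, and the sign differed between sorted libraries in all 3. The several-site guide of POM121 was at 313 in the scaled guide library, at 452, 151 and 154 in input and at 153, 193 and 389 in sorted cells. Input library 1 held more of it than the other input libraries, and the groups overlapped.

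NUP210L and NUP62CL are relatives of NUP210 and NUP62, named by the same symbol rule. NUP62CL had 3 of 4 guides lower in every sorted than in every input library, which no other member had. Its exon 5 guide at 107154209 was at 184 in the scaled guide library, at 217, 157 and 215 in input and at 72.4, 3.43 and 103 in sorted cells. Its exon 5 guide at 107154123 was at 695 in the scaled guide library, at 725, 792 and 638 in input and at 616, 222 and 343 in sorted cells. Its exon 4 guide at 107167724 was at 443 in the scaled guide library, at 199.9, 210.1 and 293 in input and at 1.81, 179 and 127 in sorted cells. These 3 did not overlap with input. The remaining exon 4 guide was at 459 in the scaled guide library, at 264, 180.3 and 99.8 in input and at 347, 0 and 405 in sorted cells and was at 0 in sorted library 2 only. Sorted minus input was -1.95 ± 0.82, with -1.74, -3.73 and -0.39 in the 3 sorted libraries, and the RRA adjusted p for depletion was 0.861. NUP210L had 0.34 ± 0.26 (adjusted p for enrichment 0.924).

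Member guides were lost from sorted libraries more often than guides in general, and they also began lower in input. Of 115 member guides, 37 were at 0 in at least 1 sorted library (32.2%), against 20.2% of all guides tested. The median mean input of member guides was 176 and that of all targeting guides 262. Among guides with a mean input below 100, 19 of 29 member guides were at 0 in a sorted library (65.5%, against 70.6% of all such guides). From 100 to 300 the count was 17 of 62 (27.4%, against 27.7%), and at 300 or more 1 of 24 (4.17%, against 2.63%). Below 300 the members' share was close to that of all guides, and the top range rested on 1 member guide. Whether low input accounts for the zeros was not tested. The 2 guides called lower by limma, in NUP160 and NUP214, compare with 0.591% of all guides tested and were both at 0 in all 3 sorted libraries, like 0.932% of all guides, and no member guide was called higher (0.0917%). With a pseudocount of 10, with edgeR on recovered reads, and when input library 2 or sorted library 2 was left out, no guide of the whole library was called lower. Without sorted library 1, 7 member guides were called lower (6.09%, against 2.66% of all guides tested in that fit), and without sorted library 3, 6 were (5.22%, against 2.17%).

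Other transport genes were counted for comparison. None of 8 further pore or pore-associated genes outside the symbol rule passed the RRA test. Their median against the guide library was -0.62, with 2 of 8 low. The 5 genes of the Ran cycle, which gives transport its direction, had a median of -0.80 with 2 low, and RANGAP1 had the smallest p there (log2 difference 1.05 ± 0.29, RRA adjusted p 0.149). Of 25 import and export receptors, IPO7 passed (0.88 ± 0.17, RRA adjusted p 0.0494), but not when any library other than input library 3 was left out (adjusted p 0.0620 to 0.385), and not with equal library totals, non-targeting scaling, edgeR or limma on gene means (0.05002 to 0.174). The receptors' median against the guide library was -0.22, nearer to all genes than that of the members, with 2 of 25 low. KPNB1, the main import receptor, ranked 2 of 19112 genes from the lowest at -3.04, and XPO1 ranked 47 at -1.62.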

How the data were processed

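Guide abundance was measured in 3 input, 3 sorted and 1 guide library. According to the submitters' processing notes, the authors used FastQC 0.11.9, cutadapt 3.3 and MAGeCK, and the version of MAGeCK is not given there. The authors deposited a normalised count per guide and cell library, with replicates joined in 1 column, and a raw count per guide for the guide library. Whole reads were recovered from the deposited normalised counts with a tolerance of 0.1, and 100% of values came out whole after rounding. The deposited log2 fold, p-value and score columns hold the authors' own comparison and were not used.

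Tables were handled in pandas 2.3.3 under python 3.11.15. Of 77441 guides, 77388 not at 0 in all 6 cell libraries were tested with limma 3.58.1 (lmFit and trended eBayes in R 4.3.3), after adding 1 to each normalised count and taking log2. RRA (alpha 0.25) then ranked genes for enrichment and for depletion on the guides' one-sided p-values with an exact null, adjusted by Benjamini-Hochberg over 19112 genes. A gene's log2 difference and standard error are those limma gave for its guide mean. For input against guide library, log2 ratios with pseudocount 1 were centred on the median guide. edgeR 4.0.16 on recovered reads was an alternative, as were pseudocounts, filters, scalings, gene summaries and left-out libraries. Scripts were tested on simulated data. Guides were matched to GRCh38 as 20 bases followed by NGG, and annotated with GENCODE 44.

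The members and lists were chosen with earlier results of these data known. Every member gene is named. Guide values in every library are given for the 4 members most enriched and the 3 most depleted by RRA p, the 4 lowest in input against guide library, and guides of several sites. Other genes are named where they passed or had the smallest p of their list, and KPNB1 and XPO1 were chosen after their values were seen. The library was read without molecular identifiers, so intervals and floors cover counting error only.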

Additional observations from a re-analysis of the deposited data

How the results depend on the processing

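No paired analysis was possible because the deposited values carry no replicate numbers. No member was called depleted under any setting tried. A single member, NUP153, was called enriched when guides with a mean input under 30 were left out (count 1), when guides of several sites were left out (count 1) and at an adjusted p below 0.25 (count 1), against 0 otherwise. The members' median difference from all genes in sorted against input was -0.14, but 0.03 with a pseudocount of 10 and 0.31 with edgeR on recovered reads, where the median of all genes was 0.04. NUP160 turned from -1.15 to 0.37 with edgeR and to 0.38 with the median guide. Member guides called lower numbered 2, but 0 with a pseudocount of 10 and 0 with edgeR. They ranged from 0 to 7 with 1 library left out: 0 without input library 2 or sorted library 2, 7 without sorted library 1 and 6 without sorted library 3. Member guides called higher ranged from 0 to 1, with 1 without sorted library 1, where 0.634% of all guides tested were called higher. All genes called enriched numbered 60, and 81 with edgeR, but 19 without sorted library 2, 20 without sorted library 3, 3 with limma on gene means and 123 at an adjusted p below 0.25. Members low against the guide library numbered 6, and 10 with scaling to non-targeting guides, 4 with a pseudocount of 10 and 6 to 7 with an input library left out. Guides at 0 in sorted libraries have log2 differences that depend on the pseudocount: the median of all genes was -0.56, and -0.30 with a pseudocount of 10. Of guides with a mean input below 100, 70.6% were at 0 in at least 1 sorted library.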
